A study of Mus musculus with 12 samples.

Results

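Acute phase proteins are secreted into plasma by the liver and change in concentration during infection, injury and metabolic inflammation. This account follows 10 of their genes in mouse liver: the serum amyloid A genes Saa1, Saa2, Saa3 and Saa4, the pentraxin gene Apcs, the lipopolysaccharide-binding protein gene Lbp, the lipocalin genes Lcn2, Orm1 and Orm2, and the haptoglobin gene Hp. They were taken by symbol from the platform's annotation, and all 10 were found, each with 1 probe set, among 18784 genes with a single symbol. The groups were KK females and C57BL/6J females, and KK males and C57BL/6J males, with 3 mice each and 1 Affymetrix whole-transcript array per mouse. KK (labelled KK/HIJ, and KK/J in another label of the same samples) is an inbred strain prone to obesity and to insulin resistance, and C57BL/6J is a common laboratory strain. No mouse was genetically altered or treated. All were 8 weeks old and on chow, were housed singly for 3 days, fasted for 4 hours and perfused with PBS before the large liver lobe was taken.

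In hepatocytes, IL-6 acting through STAT3 and IL-1 and TNF acting through NF-kB induce these genes, with C/EBP factors and glucocorticoids adding to the response. Serum amyloid A travels on high-density lipoprotein. Saa1 and Saa2 are the strongly inducible hepatic forms, Saa3 is also made by macrophages and adipocytes, and Saa4 is expressed constitutively. In the mouse the pentraxin serum amyloid P, encoded by Apcs, is an acute phase protein, and its plasma concentration is known to differ between inbred strains.

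The Saa genes lie side by side on chromosome 7 and the Orm genes on chromosome 4, and some of them are close copies. RefSeq promoter windows of the build GRCm38.p6, from 250 bases before to 50 bases after the start site, were matched by symbol for 7 of the 10 genes: the 4 Saa genes, Apcs, Lcn2 and Orm2. The windows of 4 genes are printed here because the results turn on them: Saa1 and Saa2, a near-identical pair that swung together between mice; Apcs, with the smallest adjusted p for the strains; and Orm2, called between the sexes of KK. They run 5′ to 3′ on the gene's strand, and capitals mark matches to the motifs named after them.
Saa1, chr7:46742931-46743230 (- strand): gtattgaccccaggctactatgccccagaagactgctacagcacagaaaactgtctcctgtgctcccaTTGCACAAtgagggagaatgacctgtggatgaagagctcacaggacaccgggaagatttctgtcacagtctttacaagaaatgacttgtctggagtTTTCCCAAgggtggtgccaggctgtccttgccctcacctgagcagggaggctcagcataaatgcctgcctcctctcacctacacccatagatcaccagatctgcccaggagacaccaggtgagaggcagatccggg
Saa2, chr7:46751583-46751882 (+ strand): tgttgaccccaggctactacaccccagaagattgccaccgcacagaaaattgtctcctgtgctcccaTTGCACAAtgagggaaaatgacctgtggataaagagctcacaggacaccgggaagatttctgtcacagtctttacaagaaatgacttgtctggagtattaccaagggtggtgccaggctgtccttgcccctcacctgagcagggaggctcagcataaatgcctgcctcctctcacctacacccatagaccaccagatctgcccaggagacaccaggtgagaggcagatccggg
Apcs, chr1:172895005-172895304 (- strand): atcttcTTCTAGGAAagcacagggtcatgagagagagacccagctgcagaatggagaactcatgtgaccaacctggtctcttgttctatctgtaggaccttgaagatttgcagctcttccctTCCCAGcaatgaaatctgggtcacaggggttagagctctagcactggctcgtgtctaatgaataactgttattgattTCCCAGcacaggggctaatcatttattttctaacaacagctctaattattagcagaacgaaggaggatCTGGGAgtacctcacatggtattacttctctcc
Orm2, chr4:63362199-63362498 (+ strand): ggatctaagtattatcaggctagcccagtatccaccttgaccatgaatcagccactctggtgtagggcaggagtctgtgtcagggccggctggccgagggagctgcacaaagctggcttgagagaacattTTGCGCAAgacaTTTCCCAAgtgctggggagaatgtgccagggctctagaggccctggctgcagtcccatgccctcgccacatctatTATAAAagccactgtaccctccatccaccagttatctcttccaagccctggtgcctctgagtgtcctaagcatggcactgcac
The reference is that of C57BL/6J, and the KK sequence was not analysed here.

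The Saa1 and Saa2 windows were identical at 287 of 301 aligned positions (95.3%), against 44.0% for Saa1 and Saa4 and 50.1% for Saa1 and Saa3. Transcripts and probes of the pair were not compared here, so how far a value of Saa1 or Saa2 may hold signal of the other gene is not known. RefSeq also lists each symbol of this pair as an older name of the other. The motifs were searched on both strands: C/EBP (TTNNGNAA), the IL-6 response element core (CTGGGA), STAT (TTCNNNGAA), NF-kB (GGG and TTCC with any 3 bases between them) and the TATA box (TATAAA). A C/EBP match stood in 6 of the 7 windows, against 40.7% of all 32851 windows of the same length. In Saa1 and Saa2 the shared match was TTGCACAA, and in Orm2 there were matches TTGCGCAA at -120 to -113 and TTTCCCAA at -108 to -101 from the start site. The IL-6 core stood in 2 windows (31.8% of all windows), with 3 matches in Apcs. Apcs also held the single STAT match, TTCTAGGAA (8.30% of all windows). NF-kB letters stood in 0 of the 7 (5.56% of all windows) and the TATA box in Orm2 only of the 7 (13.6%). These are matches of letters in a window and say nothing of binding.

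The deposited values are log2 expression, so a difference of 1 is a 2-fold change. The arrays had medians of 5.9 to 6.03, and arrays of a group correlated at 0.992 to 0.996 across probe sets. The letters F and M in the titles match the labelled sex, and the summed level of 3 Y-linked genes was 8.68 to 9.38 on the log2 scale in males, against 5.64 to 5.92 in females. The hepatocyte markers were high in every array, with a summed level of 16.2 to 16.3 on the log2 scale in all 4 groups. Those Y-linked genes also show the level of an absent transcript: they read 3.79 to 4.66 in female arrays. No value of the 10 genes was that low, the lowest being 5.14 for Saa1 in a C57BL/6J female.

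KK livers held more acute phase transcript than C57BL/6J livers for 6 of the 10 genes over both sexes, at an adjusted p under 0.05 by limma, and for none was it lower. These were Apcs, Saa1, Lcn2, Orm2, Lbp and Saa4. Of all 21212 probe sets 5.42% were called higher, 6.31% lower and 11.7% either way. For 3 of the 10 (Apcs, Lbp and Saa4) the 6 KK values lay wholly above the 6 C57BL/6J values, and for 0 wholly below, beside 2.66% and 3.32% of all probe sets. The median difference of the 10 genes was 0.87, beside 0.01 for all probe sets. The genes had been chosen with this result known, so the count describes them and does not test them as a set. In bulk tissue, fewer cells of a type and less RNA per cell cannot be told apart.

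**Figure D1:**
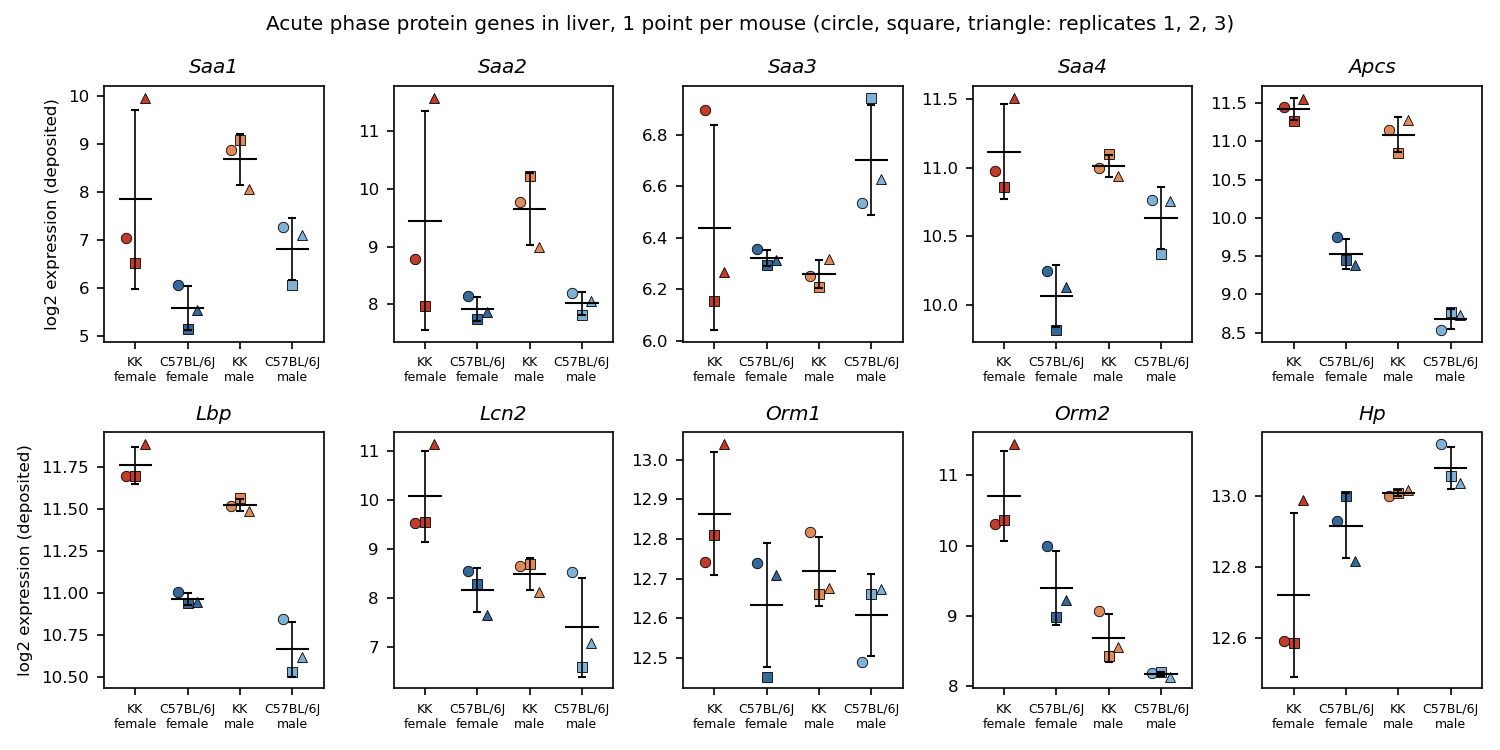
Deposited log2 expression of each gene, 1 point per mouse, with the mean (line) and SD (bar) of 3 mice; each panel has its own axis. The 6 KK values of Apcs (10.84 to 11.56) lie above all 6 C57BL/6J values (8.53 to 9.75), while Saa1 and Saa2 spread widely among KK females.

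Apcs, which encodes serum amyloid P, was called higher in KK over both sexes and in each sex. It read 11.45, 11.26 and 11.56 in KK females, against 9.75, 9.45 and 9.38 in C57BL/6J females. In males it read 11.14, 10.84 and 11.28 in KK, against 8.53, 8.78 and 8.74 in C57BL/6J. The groups did not overlap, and the difference over both sexes was 2.15 (SE 0.09, 4.44-fold, adjusted p = 2.4e-08), rank 36 in size among the 21212 probe sets. It was 1.90 in females (SE 0.13, adjusted p = 2.98e-06) and 2.41 in males (SE 0.13, adjusted p = 4.62e-07). The difference of 0.51 between these was not called (SE 0.18, adjusted p = 0.673). Crp, the other short pentraxin gene and the measured neighbour of Apcs on chromosome 1, differed by -0.06 (SE 0.06, adjusted p = 0.716). Apcs was also lower in C57BL/6J males than in C57BL/6J females, by 0.85 (difference -0.85, SE 0.13, adjusted p = 0.00609), with groups that did not overlap. In KK the male minus female difference was -0.33 (adjusted p = 0.245). The order of the group means was thus KK females (11.42 ± 0.15), KK males (11.09 ± 0.22), C57BL/6J females (9.53 ± 0.20) and C57BL/6J males (8.68 ± 0.13; SD, n = 3 each). Of the neighbours in that order, the sexes of KK did not differ by the test, those of C57BL/6J did, and KK males against C57BL/6J females was not tested.

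Lbp encodes the plasma protein that hands bacterial lipopolysaccharide to CD14 and the TLR4 receptor. Its values were 11.69, 11.70 and 11.88 in KK females, against 11.00, 10.94 and 10.94 in C57BL/6J females, and 11.52, 11.56 and 11.49 in KK males, against 10.84, 10.53 and 10.61 in C57BL/6J males. The strains did not overlap, and the difference was 0.83 over both sexes (SE 0.06, 1.78-fold, adjusted p = 2.25e-06). It was 0.80 in females (adjusted p = 0.000114) and 0.86 in males (adjusted p = 7.87e-05). In both strains the 3 male values lay below the 3 female values, by -0.24 in KK (adjusted p = 0.205) and -0.30 in C57BL/6J (adjusted p = 0.182), neither of which was called. Of the other components of lipopolysaccharide sensing, Ly96, the MD-2 partner of TLR4, fell by 0.74 in KK (SE 0.13, adjusted p = 0.00207). Cd14 differed by 0.13 (adjusted p = 0.222), with values of 4.56 to 5.06, near the level of absent transcripts. Tlr4 differed by 0.09 (adjusted p = 0.751). Its values, but for 5.17 in KK female 1, lay within the 3.79 to 4.66 of absent transcripts, so its lack of a call says little.

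The inducible pair Saa1 and Saa2 was higher in KK on average. Pooled over the 4 groups, it varied more between mice of a group than nearly all other transcripts. This was uneven between groups. The SD of Saa2 was 1.90 in KK females and 0.63 in KK males, but 0.21 in C57BL/6J females and 0.20 in C57BL/6J males. Saa1 read 7.04, 6.52 and 9.96 in KK females, against 6.05, 5.14 and 5.54 in C57BL/6J females. In males it read 8.87, 9.08 and 8.07 in KK, against 7.27, 6.06 and 7.10 in C57BL/6J. Within each sex the strains did not overlap, and the highest value by far belonged to KK female 3. Over both sexes Saa1 was higher in KK by 2.06 (SE 0.49, 4.18-fold, adjusted p = 0.0165). Its differences of 2.26 in females (SE 0.70, adjusted p = 0.0854) and 1.86 in males (SE 0.70, adjusted p = 0.182) were not called. The fit shares 1 spread per gene over the 4 groups, so the SE in males also holds the spread of females. The SD of Saa1 was 1.85 in KK females, against 0.53 in KK males and 0.65 in C57BL/6J males. With only the male groups fitted by limma, Saa1 (adjusted p = 0.0248) and Saa2 (adjusted p = 0.0158) were called.

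Saa2 read 8.79, 7.96 and 11.58 in KK females, against 8.15, 7.74 and 7.86 in C57BL/6J females, and KK female 2 lay inside the range of C57BL/6J females. In males Saa2 read 9.77, 10.22 and 8.99 in KK, against 8.19, 7.81 and 8.05 in C57BL/6J, without overlap. The difference of 1.59 over both sexes (SE 0.48, 3.00-fold, adjusted p = 0.0512) missed the threshold, with a 95% interval of 0.55 to 2.63. Without KK female 3 it was smaller, at 1.05, and was called (SE 0.21, adjusted p = 0.00891). It was also called without KK female 1, KK female 2 or KK male 3. Without KK female 3 the differences in males were called for both genes, at 1.86 for Saa1 (adjusted p = 0.0111) and 1.64 for Saa2 (adjusted p = 0.00697), and those in females were 1.20 (adjusted p = 0.125) and 0.46 (adjusted p = 0.593).

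Saa4, the constitutive member of the cluster, was higher in KK by 0.71 (SE 0.12, 1.64-fold, adjusted p = 0.00164), and its 6 KK values lay above its 6 C57BL/6J values. It read 10.98, 10.86 and 11.51 in KK females, against 10.25, 9.82 and 10.13 in C57BL/6J females. In males it read 11.00, 11.10 and 10.94 in KK, against 10.76, 10.37 and 10.76 in C57BL/6J. The difference was called in females (1.05, SE 0.17, adjusted p = 0.00233) and not in males (0.38, SE 0.17, adjusted p = 0.274). These differ by -0.67 (SE 0.24), which was not called either (adjusted p = 0.668), so Saa4 is not shown to differ more in females.

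Saa3 was not called between the strains, with a difference of -0.16 over both sexes (SE 0.11, adjusted p = 0.483, 95% interval -0.41 to 0.09). The male values were 6.25, 6.21 and 6.32 in KK, against 6.53, 6.94 and 6.63 in C57BL/6J, which do not overlap but gave no call (-0.44, adjusted p = 0.164). In females it read 6.89, 6.16 and 6.27 in KK, against 6.36, 6.29 and 6.31 in C57BL/6J. Without KK female 1, the mouse at 6.89, the difference over both sexes was called, at -0.28 (adjusted p = 0.0324). Of 11 measured markers of macrophages, which also make Saa3, Marco (-0.74, adjusted p = 0.00575), Clec4f (-0.41, adjusted p = 0.0298) and Adgre1 (-0.59, adjusted p = 0.0422) fell in KK, and Itgam rose by 0.33 (adjusted p = 0.0361). Together they were 36.4% of the 11, beside 11.7% of all probe sets called either way. Without KK female 1, 5 of the 11 fell. Within females 2 of the 11 were called higher and 1 lower (3.18% and 3.31% of all probe sets), with a median of 0.35. Within males 0 of the 11 were called higher and 2 lower (2.08% and 3.06%), with a median of -0.61. The summed level of these markers on the log2 scale was 11.13 to 11.52 in KK males, against 11.61 to 12.19 in C57BL/6J males, and 12.21 to 12.99 in KK females, against 12.13 to 12.33 in C57BL/6J females. The call of Marco held without any one array, while those of Clec4f, Adgre1 and Itgam were each lost without 7 or 8 of the 12 arrays taken out in turn. Itgam averaged within the range of absent transcripts over the 12 arrays, but read 5.39, 4.82 and 4.80 in KK females, above that range. Of 6 adipocyte markers, Cidec rose by 0.24 (adjusted p = 0.0333), a call lost without any one of KK females 1 and 2, C57BL/6J females 1 and 3 or C57BL/6J males 2 and 3. The other 5 were not called, and Adipoq and Lep averaged within the range of absent transcripts. The summed level of the 6 on the log2 scale was 7.88 to 7.95 in KK females, against 7.89 to 7.98 in C57BL/6J females, and 8.00 to 8.09 in KK males, against 7.83 to 7.98 in C57BL/6J males. The part of macrophages and adipocytes in the Saa3 values was not tested.

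**Figure D2:**
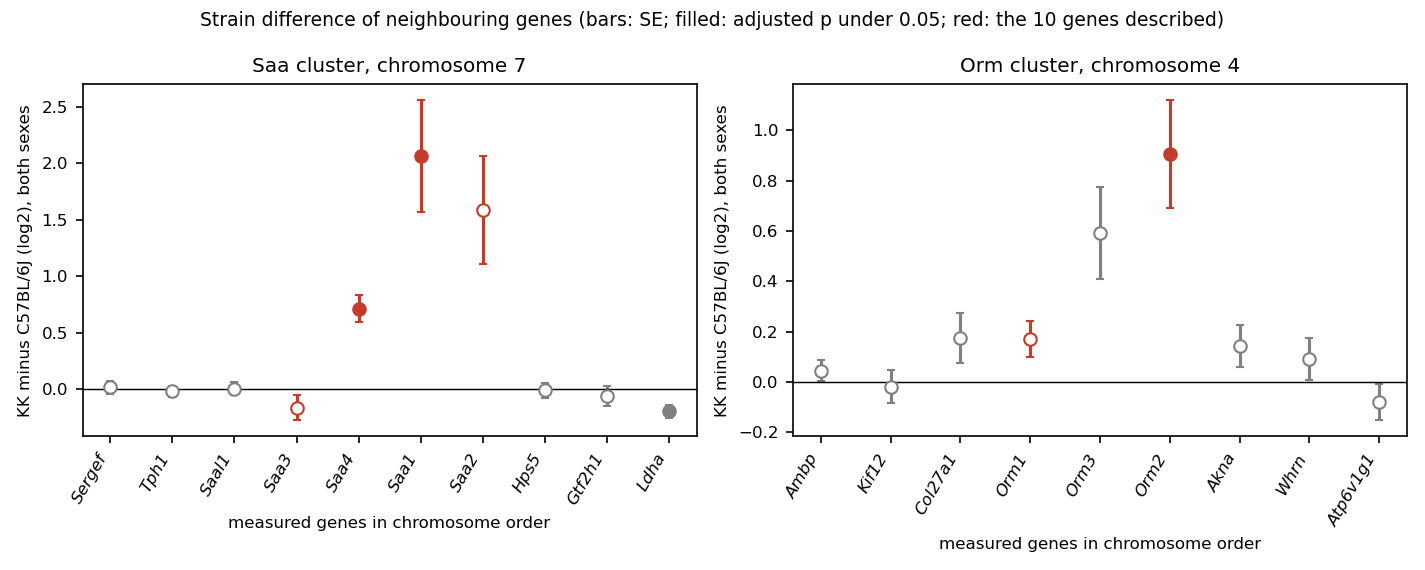
Strain difference over both sexes (log2, with its SE) of measured genes in chromosome order around the Saa and the Orm genes. Saa4 (0.71) and Saa1 (2.06) were called higher in KK, whereas Saa2 (1.59) and the genes on either side, Saa3 (-0.16) and Hps5 (-0.01), were not called.

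On chromosome 7 the genes run in the order Saal1, Saa3, Saa4, Saa1, Saa2, Hps5. Saal1 differed by 0.00 (adjusted p = 0.982) and Hps5 by -0.01 (adjusted p = 0.965). On chromosome 4, Orm1 differed by 0.17, Orm3 by 0.59 (SE 0.18, adjusted p = 0.0574) and Orm2 by 0.90, with Akna beyond Orm2 at 0.14 (adjusted p = 0.368). There were 37 measured genes within 3 places of one of the 10, other than the 10 themselves. Of these, 2 were called higher and 3 lower in KK, beside 5.42% and 6.31% of all probe sets (11.7% either way). The higher ones were Slc25a25 near Lcn2 (0.86, adjusted p = 0.0105) and the olfactory receptor gene Olfr16 near Apcs (0.39, adjusted p = 0.00735). Among the lower ones was Snhg17, a small nucleolar RNA host gene next to Lbp (-0.77, adjusted p = 0.000177).

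Lcn2 encodes lipocalin 2, which binds bacterial iron-carrying siderophores and is made by hepatocytes and neutrophils. It read 9.53, 9.56 and 11.15 in KK females, against 8.55, 8.29 and 7.66 in C57BL/6J females. Males had values of 8.66, 8.69 and 8.12 in KK, against 8.53, 6.59 and 7.09 in C57BL/6J. The females did not overlap, while C57BL/6J male 1 lay inside the range of KK males. The difference over both sexes was 1.50 (SE 0.35, 2.83-fold, adjusted p = 0.0143), with a range of 1.23 to 1.78 when each array was left out. In females the difference was 1.91 (SE 0.50, adjusted p = 0.0396). That call was lost without KK female 3 (1.38, adjusted p = 0.128), and also without any C57BL/6J female, KK male 1, KK male 2 or C57BL/6J male 3, over which the adjusted p reached 0.143. In males the difference was 1.09 (adjusted p = 0.29).

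Of 12 neutrophil markers measured, S100a8, S100a9, Ngp, Mmp8 and Cxcr2 averaged no higher than the highest value of absent transcripts over the 12 arrays. The summed level of the 12 on the log2 scale was 8.31 to 8.40 in KK females, against 8.22 to 8.37 in C57BL/6J females, and 8.37 to 8.47 in KK males, against 8.24 to 8.36 in C57BL/6J males. Csf3r, the receptor of the neutrophil growth factor G-CSF, was higher in KK by 0.31 (adjusted p = 0.015) and Ngp by 0.19 (adjusted p = 0.0291), and the other 10 were not called. Over all probe sets 11.7% were called either way. The call of Ngp was lost without any one of KK female 1, KK female 3, KK male 3, C57BL/6J female 1 or 2, or C57BL/6J male 1 or 3. Of the markers of other cells, 2 of 3 erythroid genes rose, Alas2 (1.19, adjusted p = 1.47e-05) and Slc4a1 (0.34, adjusted p = 0.0183). Of 7 markers of sinusoidal endothelium 1 fell, Lyve1 (-0.74, adjusted p = 0.000143), and of 7 of stellate cells and fibroblasts 1 fell, Col3a1 (-0.33, adjusted p = 0.00493), and the other 6 of each were not called. For T and NK cells 0 of 8, for B cells 0 of 5 and for cholangiocytes 0 of 5 markers were called by limma (1, 1 and 1 at an unadjusted p under 0.05). Of these, 4, 3 and 1 averaged no higher than the highest value of absent transcripts, as did the uncalled erythroid gene Epb42. The part of other cells in the values of the 10 genes was not tested.

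The orosomucoid genes encode alpha-1-acid glycoproteins, lipocalins that bind drugs and lipids in plasma. Orm2 read 10.30, 10.36 and 11.44 in KK females, against 9.99, 8.99 and 9.23 in C57BL/6J females. Among males the values were 9.08, 8.42 and 8.57 in KK, against 8.19, 8.20 and 8.14 in C57BL/6J. The strains did not overlap in either sex, and the difference over both sexes was 0.90 (SE 0.21, 1.87-fold, adjusted p = 0.0158). In females it was 1.30 (SE 0.30, adjusted p = 0.0246) and was lost without KK female 3 (0.93, adjusted p = 0.0626), C57BL/6J female 2 or C57BL/6J female 3, over which the adjusted p reached 0.102. In males it was 0.51 (adjusted p = 0.446).

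Between the sexes of KK, Orm2 was lower in males by 2.01 (difference -2.01, SE 0.30, 4.03-fold, adjusted p = 0.00493), with 8.69 ± 0.34 in males and 10.70 ± 0.64 in females (SD, n = 3 each). In C57BL/6J the difference of -1.23 (SE 0.30, 2.34-fold) had an adjusted p = 0.108, with 8.18 ± 0.03 in males and 9.40 ± 0.53 in females. The male and female values did not overlap in either strain. The strain differences of the sexes differed by -0.79 (SE 0.43, adjusted p = 0.836), so the sex difference is not shown to differ between strains. Orm2 and Apcs were the only 2 of the 10 called between the sexes in the fit of all arrays, Orm2 in KK and Apcs in C57BL/6J, and both were lower in males. Beside this, 0.698% of all probe sets were called higher, 1.47% lower and 2.17% either way in KK males against KK females, and 0.358%, 0.674% and 1.03% in C57BL/6J. In KK 1 of the 10 lay wholly higher in males and 3 wholly lower (10.2% and 8.41% of all probe sets), and in C57BL/6J 4 and 3 did (6.27% and 6.82%). Without KK female 3, Saa1 (1.89, adjusted p = 0.0306) and Hp (0.42, adjusted p = 0.0142) were called higher in KK males, and Orm2 was called lower in C57BL/6J males as well (adjusted p = 0.0256).

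Macrophage markers also differed between the sexes. In KK 9 of 11 were called lower in males, beside 1.47% of all probe sets, with a median difference of -1.07. The summed level of the 11 on the log2 scale was 11.13 to 11.52 in KK males, against 12.21 to 12.99 in KK females. The count called lower was 5 without KK female 1 and 4 without KK male 1 or KK male 2. In C57BL/6J 0 of 11 were called by limma, 3 were lower at an unadjusted p under 0.05 and the median was -0.33, with a summed level of 11.61 to 12.19 in males, against 12.13 to 12.33 in females. The part of these cells in the sex differences of Orm2 and Apcs was not tested.

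Orm1 was high and even, at 12.74, 12.81 and 13.04 in KK females, against 12.74, 12.45 and 12.71 in C57BL/6J females, and 12.82, 12.66 and 12.68 in KK males, against 12.49, 12.66 and 12.67 in C57BL/6J males. Its difference of 0.17 over both sexes (SE 0.07, 95% interval 0.02 to 0.33) was not called (adjusted p = 0.168). Probes of Orm1, Orm2 and Orm3 may read each other's transcripts, and the probe sequences were not analysed here.

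Hp encodes haptoglobin, which binds free haemoglobin for uptake through CD163. It read 12.59, 12.59 and 12.99 in KK females, against 12.93, 13.00 and 12.82 in C57BL/6J females, and 13.00, 13.01 and 13.02 in KK males, against 13.14, 13.05 and 13.03 in C57BL/6J males. The difference over both sexes was -0.13 (SE 0.07, adjusted p = 0.311, 95% interval -0.28 to 0.02). Without KK female 3 it was -0.20 (SE 0.05, adjusted p = 0.0255), a call opposite in direction to the 7 genes called higher in that fit.

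**Figure D3:**
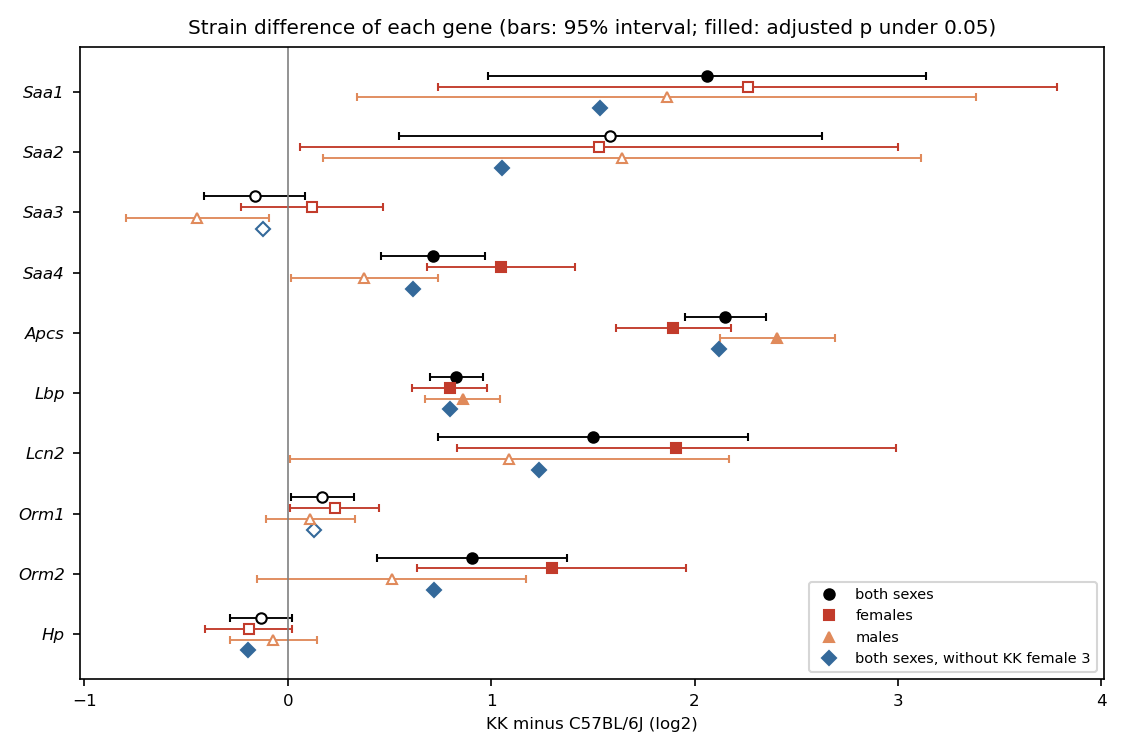
KK minus C57BL/6J difference (log2) of each gene for both sexes together, for females and for males, with 95% intervals, and for both sexes without KK female 3 (diamonds). Filled symbols have an adjusted p under 0.05; diamonds have no interval. Without that mouse 7 genes were called higher, and Hp was called lower.

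Within females alone, 5 of the 10 were called higher in KK (Apcs, Lbp, Saa4, Lcn2 and Orm2) and 0 lower, beside 3.18% of all probe sets called higher, 3.31% lower and 6.50% either way. The KK values lay wholly above the C57BL/6J values for 7 of the 10 and wholly below for 0, beside 9.95% and 10.6% of all probe sets. Within males 2 were called higher (Apcs and Lbp) and 0 lower, beside 2.08%, 3.06% and, either way, 5.15% of all probe sets. In males 6 lay wholly above and 2, Saa3 and Hp, wholly below, beside 11.2% and 10.5%. The count in females was 3 without KK female 3, C57BL/6J female 2 or C57BL/6J female 3, and the count in males was 4 without KK female 3. For none of the 10 was the strain difference of males called different from that of females by limma, beside 0.0660% of all probe sets called higher, 0.0754% lower and 0.141% either way. At an unadjusted p under 0.05 by limma, 3 of the 10 differed in this way. Over both sexes, leaving out each array in turn left 6 or 7 genes called higher.

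KK female 3 had the highest value of the KK females for 9 of the 10 genes, Saa3 being the exception, although it was the highest of its group for 28.6% of all probe sets. Its Saa2 value stood 3.21 above the mean of the other KK females, the largest such excess of the 21212 probe sets on that array. Saa1 stood 3.18 above (rank 2), Lcn2 1.60 (rank 3) and Orm2 1.11 (rank 12). Apcs, at 0.20 (rank 1706), and Lbp, at 0.19 (rank 1905), were closer to the other mice. Of 19 other positive acute phase genes this mouse was the highest KK female for 13, and C57BL/6J female 1 was likewise the highest of its group for 13.

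Single mice of other groups also stood out for some of these genes. C57BL/6J female 1 was also the highest of its group for 9 of the 10 genes (22.4% of all probe sets), with Orm2 0.88 above the other mice (rank 12) and Saa1 0.71 above (rank 22). In C57BL/6J male 1 Lcn2 stood 1.69 above (rank 3), while Apcs stood -0.22 from the others. Over all groups the SD within groups was 1.04 for Saa1 and 1.01 for Saa2, ranks 4 and 5 of the 21212 probe sets, and 0.74 for Lcn2 (rank 18), whereas it was 0.18 for Apcs and 0.10 for Lbp, beside a median of 0.12. The array medians and spreads of KK female 3 (5.93, with an interquartile range of 2.89) lay inside those of the other arrays.

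**Figure D4:**
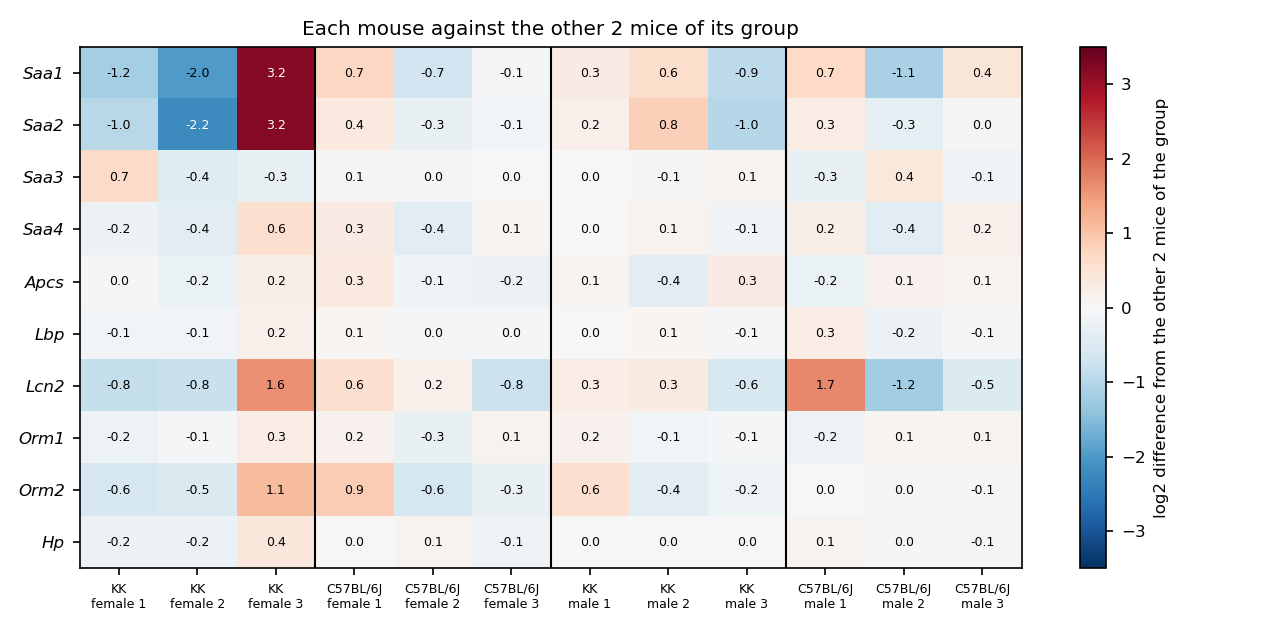
Log2 difference of each mouse from the mean of the other 2 mice of its group, for each gene (rows) and mouse (columns), from blue (lower) to red (higher). KK female 3 is raised for 9 of the 10 genes, most for Saa2 (3.21) and Saa1 (3.18). The row of Apcs runs from -0.37 to 0.34 and that of Lbp from -0.20 to 0.27.

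Genes with the most similar profiles were then sought. Likeness was taken as the root mean square difference of log2 values over the 12 arrays after each gene's mean was removed. Saa1 was closest to Saa2 (0.56), against 0.86 for Nat8f5, the closest gene outside the 10. Lbp was within 0.11 of Pm20d1, 0.13 of Tcn2, the gene of the cobalamin carrier transcobalamin, and 0.13 of Slc26a2. Apcs was within 0.29 of Apoa4, an apolipoprotein gene (strain difference 2.35), 0.35 of Pls1 and 0.36 of Abhd1. The closest genes to Lcn2 were Mfsd2a (0.54), Tcim (0.57) and Hamp (0.60), and the closest to Orm2 was Orm3 (0.31). Orm3 read 8.01, 7.83 and 8.79 in KK females, against 7.76, 7.34 and 7.43 in C57BL/6J females. The values in males were 6.99, 6.35 and 6.39 in KK, against 6.49, 5.74 and 6.05 in C57BL/6J, so it too was highest in KK female 3. Its male minus female difference was -1.63 in KK (adjusted p = 0.00695) and -1.42 in C57BL/6J (adjusted p = 0.0183).

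Most other positive acute phase genes were not called between the strains. Of 19 measured, 1 rose, 2 fell and 16 were not called. The share called was 15.8%, beside 11.7% of all probe sets (5.42% higher and 6.31% lower). The median of the 19 was 0.01. At an unadjusted p under 0.05 by limma, 4 were higher and 2 lower. Those higher included the uncalled Orm3 (0.59, adjusted p = 0.0574), Lrg1 (0.38, adjusted p = 0.0698) and C4b (0.21, adjusted p = 0.106). Hamp, the gene of the iron hormone hepcidin and an IL-6 target, rose by 1.25 (SE 0.28, adjusted p = 0.0109). It read 11.56, 11.51 and 11.51 in KK females, against 9.88, 10.18 and 9.65 in C57BL/6J females, and 10.74, 10.20 and 10.89 in KK males, against 10.98, 9.07 and 9.14 in C57BL/6J males. KK female 3 was not raised for Hamp, and C57BL/6J male 1 was the highest male. Agt, the angiotensinogen gene, fell by 0.26 (adjusted p = 0.00237), and Il1rn, which encodes the antagonist of the IL-1 receptor, fell by 0.28 (adjusted p = 0.0151). Fga, which encodes a fibrinogen chain, differed by 0.05 (adjusted p = 0.696), and Hpx, the haem carrier hemopexin, by 0.07 (adjusted p = 0.519). Without KK female 3, 3 of the 19 were called higher, and without KK female 1, KK female 2 or C57BL/6J male 1, 2 were.

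Negative acute phase genes encode plasma proteins that fall during the response. Of 10 measured, 3 fell, 1 rose and 6 were not called (40% called, beside 11.7% of all probe sets), with a median of -0.05. Serpina6, which encodes corticosteroid-binding globulin, fell by 0.71 (SE 0.09, adjusted p = 0.000186) and did not overlap between strains: it read 11.24, 11.00 and 11.09 in KK females, against 12.01, 11.86 and 11.95 in C57BL/6J females. Apoa1, the main protein of high-density lipoprotein, fell by 0.34 (adjusted p = 0.000544) and Pon1, a lipoprotein-bound esterase, by 0.25 (adjusted p = 0.00355). Igf1 rose by 0.22 (adjusted p = 0.0335), a call that was lost without any one of 8 of the 12 arrays (KK females 1 and 3, KK males 1 and 3, C57BL/6J female 2 and each C57BL/6J male).

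Upstream of these genes, 0 of 19 genes of the IL-6 family and STAT3 pathway were called by limma over both sexes, beside 11.7% of all probe sets. At an unadjusted p under 0.05, 3 of the 19 were higher and 2 lower. Stat3 differed by 0.12 (adjusted p = 0.481), its feedback inhibitor Socs3 by 0.05 (adjusted p = 0.833) and the IL-6 receptor gene Il6ra by -0.40 (adjusted p = 0.0519); these 3 were named after their values were seen. Within each sex 1 of the 19 was called between the strains (5.26%), beside 6.50% of all probe sets in females and 5.15% in males. It was Pim1 in females (-0.57, adjusted p = 0.0485) and Il6ra in males (-0.73, adjusted p = 0.0273). Pim1 was also called higher in KK males than in KK females (0.81, adjusted p = 0.0194). Over both sexes, up to 1 gene was called in each direction when single arrays were left out, and with array weights 3 were higher and 1 lower. Of 23 genes of the IL-1, TNF, TLR and NF-kB pathway 2 rose and 2 fell (17.4% called, beside 11.7% of all probe sets). Nfkbia, the inhibitor that NF-kB itself induces, rose by 0.34 (adjusted p = 0.00432), and the kinase gene Irak1 rose by 0.25 (adjusted p = 0.0095). Il1rap, the accessory chain of the IL-1 receptor, fell by 0.44 (adjusted p = 0.0143), and Ly96 was the other that fell. The rises were 3 without KK female 2.

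Among 15 liver transcription factors and genes of the glucocorticoid pathway, 4 rose and 2 fell (40% called, beside 11.7% of all probe sets). Cebpb, whose product binds C/EBP motifs and is activated by IL-6, rose by 0.37 (SE 0.08, adjusted p = 0.0111). It read 8.57, 8.58 and 8.82 in KK females, against 8.34, 8.03 and 8.08 in C57BL/6J females. The male values overlapped, at 8.75, 8.57 and 8.37 in KK, against 8.46, 8.21 and 8.28 in C57BL/6J. Cebpd, a second inducible C/EBP gene, rose by 0.29 (adjusted p = 0.0236) at levels of 4.79 to 5.20 in KK and 4.46 to 4.92 in C57BL/6J, near that of absent transcripts. This call was lost without KK female 3, C57BL/6J female 3, C57BL/6J male 2 or C57BL/6J male 3. Sgk1, a kinase gene induced by glucocorticoids, rose by 0.60 (adjusted p = 0.000395), and Foxa3, a hepatocyte factor, fell by 0.53 (adjusted p = 0.00957). Named after their values were seen, the glucocorticoid-induced genes Tsc22d3 and Fkbp5 moved in opposite directions over both sexes, by 0.43 (adjusted p = 0.0238) and -0.86 (adjusted p = 0.0255). Tsc22d3 averaged 9.22 in KK females, against 8.12 in C57BL/6J females, but 8.15 in KK males, against 8.40 in C57BL/6J males. Fkbp5 averaged 7.78 in KK against 8.01 in C57BL/6J in females, and 6.62 against 8.11 in males. For 1 gene of this list the strain difference of males was called lower than that of females, beside 0.0754% of all probe sets. The same held for 1 of the 23 genes of the IL-1, TNF, TLR and NF-kB pathway. The call of Tsc22d3 was lost without any one of 5 arrays (KK female 3, KK male 1, C57BL/6J female 3 and C57BL/6J males 2 and 3), and that of Fkbp5 without any one of 4 (KK female 2, KK male 1 and C57BL/6J females 1 and 3). Over all arrays left out in turn, 2 to 5 genes of this list rose and 1 to 3 fell.

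Among 15 receptors and partners of these proteins, 1 rose and 1 fell (13.3% called, beside 11.7% of all probe sets). Scarb1, the receptor of high-density lipoprotein that also takes up serum amyloid A, fell by 0.38 (SE 0.06, adjusted p = 0.00148) without overlap between the strains. Lrp1, an endocytic receptor that clears hemopexin with haem, rose by 0.28 (adjusted p = 0.0208), which was lost without KK female 2 or C57BL/6J male 2. Without KK female 1, 3 genes of this list fell.

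**Figure D5:**
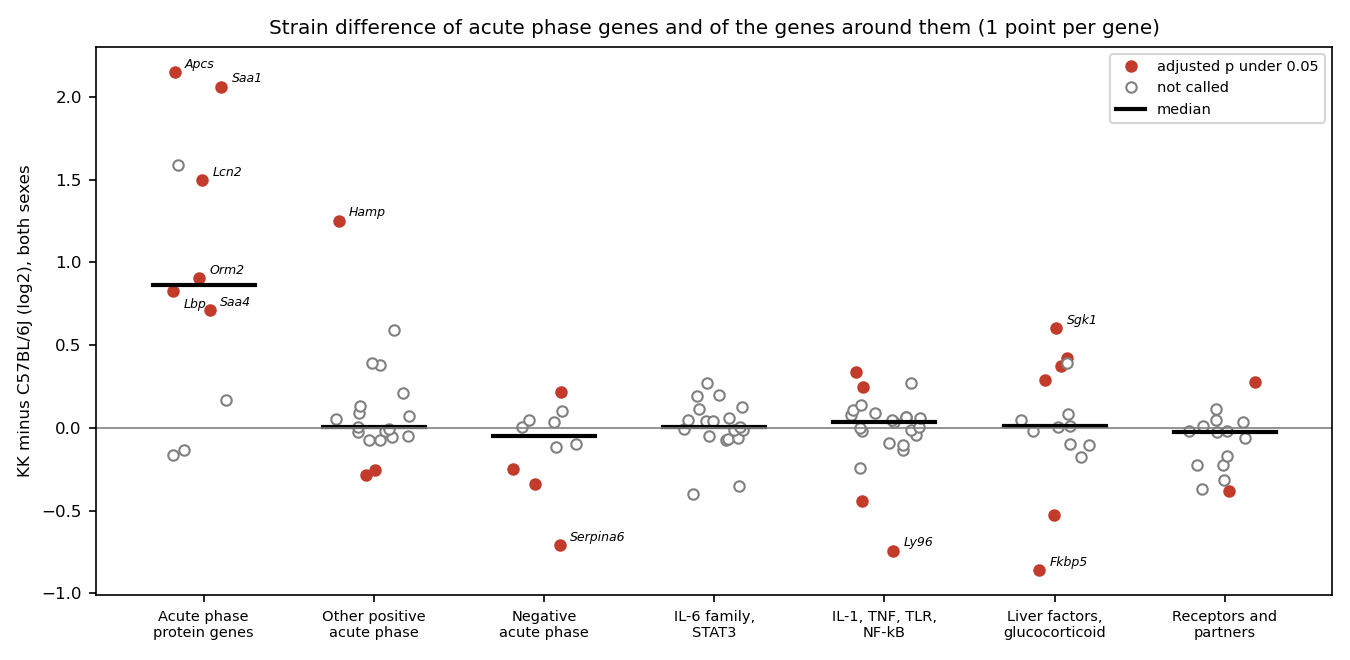
KK minus C57BL/6J difference over both sexes (log2), 1 point per gene, for the 10 genes and for 6 lists of genes around them; bars are medians and filled points have an adjusted p under 0.05. The 10 genes have a median of 0.87, and the medians of the other lists lie between -0.05 and 0.03.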

How the data were processed

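RNA of 12 livers was labelled with biotin from 300 ng each and hybridised to 1 array per mouse. The authors deposited log2 values, made with RMA and the affy package per the submitters' processing notes; versions are not given in the sources used here. There was 1 value for each of 21212 probe sets. Scanner files, detection calls and probe sequences were not used, and the number of arrays limits the precision.

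All arrays were fitted together with limma 3.58.1 in R 4.3.3 (lmFit and eBayes, 1 mean per strain and sex, no filter), with 6 comparisons, two-sided tests and Benjamini-Hochberg adjustment over all probe sets. SE is that of the fit, whose spread for each gene is shared by the 4 groups, and SD is over 3 mice. Calls are at an adjusted p under 0.05. The fit was tested on simulated data. The genes, lists and tests were chosen with earlier results of these data known. Named are the 10 genes, up to 4 called genes per list with the smallest adjusted p, the 3 genes with the closest profile, and measured genes up to 3 places away in RefSeq order; other genes are comparison points chosen after their values were seen. Alternatives were quantile or loess scaling, brighter probe sets, 1 probe set per gene, a trended robust prior, weighting of arrays, a block for the replicate number, only the groups compared, each array left out and, added after seeing the data, the interquartile range as a covariate. Promoters and gene order are RefSeq's; windows were aligned with Biopython 1.88.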

Additional observations from a re-analysis of the deposited data

How the results depend on the processing

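Over both sexes, the 6 genes called higher in KK (Apcs, Saa1, Lcn2, Orm2, Lbp and Saa4) were called under all 20 alternatives, and the count of the 10 was 6 to 8. Saa2 was called under 10 of the 20 alternatives, including quantile and loess scaling, and Orm1 under loess scaling and array weights. The labels do not say that equal replicate numbers share a litter or a day, so the numbers were not taken as a pairing. Among pairs of arrays of different groups, deviations correlated above 0.1 in 10 of 18 with equal numbers and 8 of 36 with unequal numbers. The cause of this was not tested. With the replicate block 6 genes were called higher for the sexes together, 5 among females and 2 among males. These counts were the same as without the block, while all calls over both sexes numbered 3113, beside 2488 without it. With only the groups compared, 3 genes were called higher in KK females and 4 in KK males, and 190 probe sets between KK males and females, beside 5, 2 and 460. Array weights gave 2423 calls for the strains in males (1092 without weights), 2058 between the sexes in KK (460), 363 in C57BL/6J (219) and 77 for the interaction (30). They also called 1 gene of the 10 lower in KK males than in C57BL/6J males, and 3 lower in males in KK and 2 in C57BL/6J, and turned the uncalled differences of Saa2 to -0.50 and -0.038 between the sexes of KK and C57BL/6J, and to -0.46 for the interaction. The interquartile range as a covariate, added after seeing the data, gave 2329 calls for the strains in females (1378 without it), 1673 in males and 392 between the sexes of C57BL/6J. With each array left out, all calls ranged from 905 to 1412 for the strains in females, 662 to 1163 in males, 160 to 512 and 142 to 225 between the sexes of KK and of C57BL/6J, and 19 to 35 for the interaction. Of the 10 genes, 3 to 6 were then called higher in KK females and 2 to 4 in KK males, 0 or 1 lower in KK (for the sexes together, females and males alike), 0 to 2 higher in KK males than in KK females, and 1 or 2 lower in C57BL/6J males than in C57BL/6J females. Uncalled differences that changed sign were Saa3 for the strains in females (-0.11 to 0.26), Saa2 (-0.53 to 1.28), Saa3 (-0.32 to 0.047) and Saa4 (-0.23 to 0.092) between the sexes of KK, Orm1 between those of C57BL/6J (-0.12 to 0.034), and Saa1 (-1.06 to 0.66), Saa2 (-0.63 to 1.18) and Lbp (-0.0026 to 0.15) for the interaction; the cause was not tested.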
